A study of Mus musculus with 21 samples.

Results

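The 44 genes described here encode the DNA replication machinery and proteins that a cell makes for S phase, the part of the cell cycle in which the genome is copied. They were taken by symbol from a given list and not by a cut on their values. The list was chosen with earlier results of these data known. Each gene was represented by the brightest of the probesets that the platform table pairs with exactly 1 gene symbol, and arrays of the same pool were averaged. All 44 were found among the 19938 genes so named. Of these, 43 were among the 13956 genes tested, and Orc1 lay under the filter on dim genes.

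The arrays (Affymetrix Mouse Gene 1.0 ST) measured RNA of satellite cells, the stem cells of skeletal muscle, from the mouse hindlimb. All mice carried Pax7CreER/+ and Rosa26REYFP/+: a tamoxifen-dependent Cre driven by Pax7, the gene that marks these cells, switched on a yellow fluorescent protein, and YFP+ cells were sorted at least 2 weeks after tamoxifen, with RNA taken at once and no culture. Mice without a further allele are called WT here. Cells of noninjured mice are QSC, quiescent satellite cells, and cells from the limb contralateral to a BaCl2 injury are CSC, taken 2.5 or 28 days after it. Knockout mice carried TSC1flox/flox, Rptrflox/flox or cMetflox/flox in addition, so that the Cre that labels the cells also removes the gene in them. TSC1 restrains the growth kinase complex mTORC1, Rptor encodes raptor, the part of mTORC1 that recruits its substrates, and cMet binds hepatocyte growth factor. The mice were 3 to 5 months old and of a mixed C57BL6 background, except that both cMet knockout pools are labelled C57BL6 mixed FVB, so that this genotype and this background cannot be told apart.

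Each pool held cells of 3 to 4 mice. WT QSC had 3 pools and WT CSC at 2.5 days had 3 pools. There was 1 pool each of TSC1 KO QSC, of QSC and CSC from the Rptor knockout (Rptor KO), of QSC and CSC from the cMet knockout (cMet KO) and of WT CSC at 28 days, and the knockout CSC pools were taken at 2.5 days. The 12 pools were measured on 21 arrays. The single pools could not be checked against replicates. Their tests take the spread from the WT pools, and what belongs to the group cannot be told apart from what belongs to that pool.

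Replication starts in G1, when the origin recognition complex, Cdc6 and Cdt1 load the ring-shaped MCM helicase onto DNA, a step called licensing. Cdc45 and the GINS complex then switch the helicase on, polymerase alpha with primase lays down primers, polymerases delta and epsilon extend them on the sliding clamp PCNA, and ribonucleotide reductase and thymidylate synthase supply the building blocks. Many of these genes are transcribed by E2F factors as cells leave G0, and resting satellite cells are known to keep them low until they are activated.

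The promoter letters of a few members are shown first, because E2F factors are the known shared regulators of the family. Mcm5 and Mcm6 stand for the helicase subunits with matches to the E2F letters searched, and Cdc6 and Hells for other members with a match. Gins3 and Pola1 hold a match although their differences opposite an injury, given below, were among the smaller ones. Rrm2 and Pcna, without a match in this stretch, had the largest and the smallest difference of the tested members. Each line is the 160 bases before the RefSeq gene start (build GRCm38.p6), on the gene's own strand, 5′ to 3′. Capitals mark matches on either strand to the E2F letters TTTCCCGC, TTTGGCGC, TTTCGCGC or TTTGCCGC, which can overlap each other, or to CCAAT, the letters that the factor NF-Y is known to bind. The stretches lie at chr8:75109349-75109508 (plus strand) for Mcm5, chr1:128359706-128359865 (minus strand) for Mcm6, chr11:98907991-98908150 (plus strand) for Cdc6, chr19:38930830-38930989 (plus strand) for Hells, chr8:95633399-95633558 (plus strand) for Gins3, chrX:93632156-93632315 (minus strand) for Pola1, chr12:24708094-24708253 (plus strand) for Rrm2 and chr2:132253181-132253340 (minus strand) for Pcna.
Mcm5: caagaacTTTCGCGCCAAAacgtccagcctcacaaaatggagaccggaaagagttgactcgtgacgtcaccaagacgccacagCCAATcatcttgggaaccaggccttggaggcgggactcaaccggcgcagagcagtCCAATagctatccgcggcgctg
Mcm6: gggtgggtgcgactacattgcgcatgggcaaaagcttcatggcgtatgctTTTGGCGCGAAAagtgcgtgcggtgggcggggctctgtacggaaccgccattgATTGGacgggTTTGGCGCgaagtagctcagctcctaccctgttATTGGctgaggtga
Cdc6: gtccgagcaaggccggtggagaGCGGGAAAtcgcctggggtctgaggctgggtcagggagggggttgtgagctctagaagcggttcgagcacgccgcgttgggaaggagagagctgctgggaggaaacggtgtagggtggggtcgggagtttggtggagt
Hells: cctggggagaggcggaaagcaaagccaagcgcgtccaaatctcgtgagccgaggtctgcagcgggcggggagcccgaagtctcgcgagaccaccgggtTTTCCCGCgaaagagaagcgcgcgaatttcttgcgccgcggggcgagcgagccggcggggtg
Gins3: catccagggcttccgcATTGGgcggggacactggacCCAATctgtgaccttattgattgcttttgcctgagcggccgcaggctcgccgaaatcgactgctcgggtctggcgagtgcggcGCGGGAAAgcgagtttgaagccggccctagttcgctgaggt
Pola1: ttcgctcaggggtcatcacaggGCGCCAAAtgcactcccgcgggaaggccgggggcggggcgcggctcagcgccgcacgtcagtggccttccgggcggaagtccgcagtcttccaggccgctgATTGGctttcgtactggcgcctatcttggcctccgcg
Rrm2: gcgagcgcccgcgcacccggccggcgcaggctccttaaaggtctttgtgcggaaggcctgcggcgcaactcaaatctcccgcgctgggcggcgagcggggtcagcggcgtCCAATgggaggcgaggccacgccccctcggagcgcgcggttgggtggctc
Pcna: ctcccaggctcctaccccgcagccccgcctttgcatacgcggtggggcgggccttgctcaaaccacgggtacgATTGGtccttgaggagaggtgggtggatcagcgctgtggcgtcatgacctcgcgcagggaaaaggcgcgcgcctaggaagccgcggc

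In Mcm5 and Mcm6 a match on one strand overlaps a match on the other, and Mcm6 holds a further match closer to the start. The RefSeq table held a window, from 250 bases before to 50 after the start, for 37 of the 44 members: 31 had 1 window and 6 had several. Pole, Mcm4, Gins1, Gins2, Gins4, Prim2 and Rfc2 were not among them. The E2F letters occurred in the windows of 16 of these 37 members (43.2%), against 2.60% of all 27025 genes with a window and 4.31% of the 11009 tested genes with one. CCAAT occurred for 23 of 37 members (62.2%) and for 41.6% of tested genes, and TTTGAA, the core of the element known as CHR, for 5 of 37 (13.5%) and 14.1% of tested genes. The base composition of the promoters was not matched, and a match is a run of letters, not a measured binding site. Members with the E2F letters had a median log2 difference opposite an injury of 1.49 (from 0.46 to 2.08), and members without them 1.20 (from 0.30 to 2.36), so the ranges overlapped almost wholly.

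The deposited values are log2 signals. Array medians lay between 7.03 and 7.21. Pax7 measured between 10.26 and 12.10 in the 12 pools and Myf5, another satellite cell gene, between 9.76 and 11.64, so markers of the labelled cell type were high in every pool. The targeted genes do not check the genotype labels, because each has 1 probeset that reads the whole transcript while recombination may take out a few exons: Tsc1 differed from WT QSC by -0.40 ± 0.24 in TSC1 KO QSC, Rptor by -0.07 ± 0.27 in Rptor KO QSC and Met by 0.24 ± 0.19 in cMet KO QSC, none past the threshold. In pooled bulk RNA, more cells in S phase and more RNA per cell cannot be told apart, nor can fewer cells of a type and less RNA per cell. No label says that pools of a group came from separate days, so the p-values measure the spread between these pools of different animals.

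Replication genes were higher in WT satellite cells 2.5 days after an injury to the opposite limb. In limma's moderated test, with Benjamini-Hochberg adjustment over all tested genes and a threshold of 0.05, 38 of the 43 tested members were higher in WT CSC at 2.5 days than in WT QSC, and 0 were lower. Of all tested genes 10.6% were called higher and 7.36% lower. The median log2 difference of the tested members was 1.22, against -0.05 for all tested genes, and 29 members differed by more than 1 on the log2 scale. Gins1, Gins3 and Hells passed the filter on dim genes only through the WT CSC pools. With no filter, 37 of all 44 members were called higher, where 6.67% of all genes were. The 3 CSC pools lay above the 3 QSC pools for 43 of the 44 members, the exception being Pcna, and this held for 18.7% of tested genes. The 3 CSC pools lay above all 9 other pools for 39 members, the exceptions being Orc6, Gins2, Pola1, Pcna and Slbp, and for 12.2% of tested genes.

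**Figure D1:**
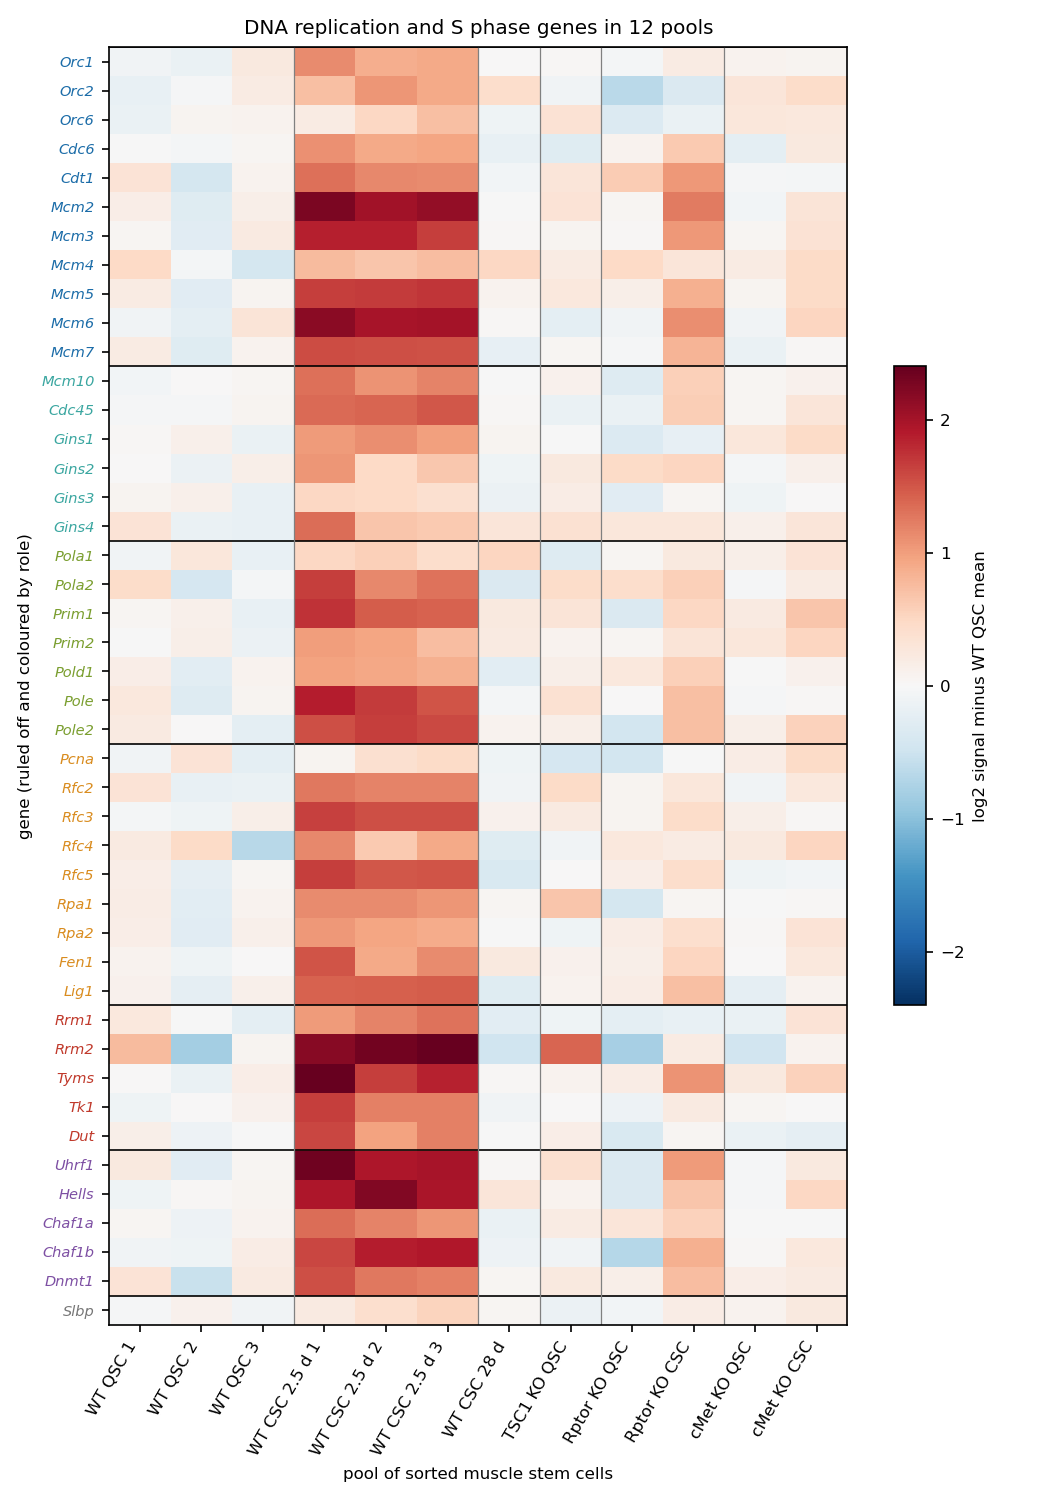
Log2 signal of each of the 44 genes minus its mean over the 3 WT QSC pools (colour), in 12 pools (columns), with genes ruled off by role. The 3 WT CSC pools at 2.5 days stand out as a block, and the Rptor KO CSC pool is paler. The remaining pools are mostly close to the WT QSC mean.

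Licensing genes rose in 9 of the 10 members tested, with a median log2 difference of 1.38. Mcm2, a subunit of the MCM helicase, measured 8.19, 7.74 and 8.18 in the 3 WT QSC pools and 10.30, 10.06 and 10.15 in the 3 WT CSC pools. No CSC pool came near the QSC pools, and the log2 difference was 2.13 ± 0.16 (SE; 4.38-fold; adjusted p = 0.000133). Mcm6 measured 7.76, 7.62 and 8.17 against 10.02, 9.83 and 9.84, a log2 difference of 2.05 ± 0.16 (adjusted p = 0.000196). The subunits Mcm3, Mcm5 and Mcm7 differed by 1.80 ± 0.15, 1.69 ± 0.15 and 1.55 ± 0.15 on the log2 scale. Their CSC pools lay within narrow ranges, for example 9.83, 9.84 and 9.88 for Mcm5, whereas its QSC pools measured 8.36, 7.90 and 8.23. Mcm4, a further subunit of the same ring, had the smallest difference of the MCM genes, 0.72 ± 0.21 (adjusted p = 0.0438). Its QSC pools were the more scattered, at 9.52, 9.00 and 8.62, against 9.80, 9.72 and 9.78 in CSC. The Mcm4 call was lost when any 1 of 5 pools was left out (WT QSC 2 or 3 or any WT CSC pool), with log2 differences of 0.51 to 0.74 and adjusted p of 0.0873 to 0.126.

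The 2 loaders that bring the MCM ring to the origin also rose. Cdc6 measured 6.76, 6.72 and 6.82 in QSC and 7.87, 7.68 and 7.71 in CSC, a log2 difference of 0.99 ± 0.12 (adjusted p = 0.00126). Cdt1 measured 8.52, 7.77 and 8.26 and 9.50, 9.34 and 9.32, a difference of 1.20 ± 0.19 (adjusted p = 0.00366). Of the origin recognition complex, which marks the origin, Orc2 passed, with 8.50, 8.64 and 8.88 in QSC, 9.39, 9.74 and 9.58 in CSC and a difference of 0.90 ± 0.15 (adjusted p = 0.00499). Orc6 measured 8.76, 8.98 and 8.98 in QSC and 9.10, 9.40 and 9.62 in CSC. Its pools did not overlap, but its difference of 0.47 ± 0.16 missed the threshold (adjusted p = 0.0752). Orc1, the dimmest member, measured 5.50, 5.42 and 5.82 in QSC and 6.71, 6.45 and 6.49 in CSC, and at most 5.82 in the 9 pools outside WT CSC. Without the filter its log2 difference was 0.97 ± 0.15 (adjusted p = 0.00552).

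Genes that switch the helicase on rose in 6 of 6 members, with a median log2 difference of 0.96. Cdc45, which joins the MCM ring to form the moving helicase, measured 7.43, 7.43 and 7.52 in QSC and 8.82, 8.86 and 8.95 in CSC, a difference of 1.42 ± 0.12 (adjusted p = 0.000238). Both groups were tight, with SDs of 0.05 and 0.07 (n = 3 pools each). Mcm10, which helps to activate the helicase, differed by 1.20 ± 0.13 and Gins1, a GINS subunit, by 1.04 ± 0.13. The other GINS subunits had smaller values: 0.88 ± 0.22 for Gins4, 0.73 ± 0.17 for Gins2 and 0.46 ± 0.13 for Gins3. Gins3 measured 6.49, 6.53 and 6.23 in QSC and 6.92, 6.89 and 6.81 in CSC, the smallest difference that passed (adjusted p = 0.0435). Gins3 passed the filter on dim genes only through the WT CSC pools, and without the filter it was not called (adjusted p = 0.0543). The calls of Gins2, Gins3 and Gins4 depended on single pools. Gins2 did not pass once WT CSC pool 1 or 3 was left out (log2 0.57 and 0.77, adjusted p 0.0594 and 0.0598). Gins4 missed it without WT CSC 1 or 2 or WT QSC 2 or 3 (log2 0.65 to 0.98, adjusted p 0.0515 to 0.0707). Gins3 missed it without any pool but WT QSC 2 (log2 0.36 to 0.49, adjusted p 0.0567 to 0.142).

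Polymerase and primase genes rose in 6 of 7 members, with a median log2 difference of 1.37. Pole, the catalytic subunit of the leading-strand polymerase epsilon, measured 7.11, 6.55 and 6.93 in QSC and 8.75, 8.54 and 8.38 in CSC, a difference of 1.69 ± 0.17 (adjusted p = 0.000483). Its partner Pole2 differed by 1.60 ± 0.15, and Pold1, the catalytic subunit of the lagging-strand polymerase delta, by 0.92 ± 0.14. Of the primase, which makes the RNA primers, Prim1 differed by 1.53 ± 0.14 and Prim2 by 0.90 ± 0.14. The subunits of polymerase alpha, which extends those primers, had unlike values: 1.37 ± 0.22 for Pola2 and 0.49 ± 0.15 for Pola1. Pola1, the catalytic subunit, measured 7.99, 8.34 and 7.89 in QSC and 8.57, 8.64 and 8.50 in CSC and missed the threshold narrowly (adjusted p = 0.0506). Without WT QSC pool 2, its highest QSC pool, the Pola1 difference was 0.63 and passed (adjusted p = 0.0144).

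Genes of the clamp, its loader, strand binding and joining rose in 7 of 9 members, with a median log2 difference of 1.19. Rfc3, a subunit of the complex that loads the clamp, measured 6.85, 6.78 and 7.03 in QSC and 8.53, 8.43 and 8.44 in CSC, a difference of 1.58 ± 0.13 (adjusted p = 2e-04). Its loader partners Rfc5 and Rfc2 differed by 1.56 ± 0.14 and 1.22 ± 0.16. Rfc4, a further subunit, measured 9.05, 9.30 and 8.17 in QSC and 9.99, 9.47 and 9.75 in CSC. The QSC pools spanned more than the groups differed by, and its difference of 0.90 ± 0.27 missed the threshold (adjusted p = 0.0524). Without WT QSC pool 2 it was 1.13 and passed (adjusted p = 0.0255). Lig1, the ligase that seals Okazaki fragments, differed by 1.43 ± 0.14, and Fen1, the nuclease that trims them, by 1.19 ± 0.17. Rpa1 and Rpa2, which coat single-stranded DNA, differed by 1.10 ± 0.14 and 0.96 ± 0.15.

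Pcna, the clamp itself and a common marker of proliferating cells, also did not pass. It measured 11.68, 12.08 and 11.52 in QSC and 11.82, 12.14 and 12.22 in CSC. One QSC pool lay above a CSC pool, and the difference of 0.30 ± 0.18 did not pass (adjusted p = 0.291). A pair of probesets carries the symbol, and they gave 0.30 and 0.29. RefSeq lists 2 Pcna pseudogenes, Pcna-ps1 and Pcna-ps2, so the source of this signal is uncertain and the probesets' own sequences were not used here.

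Nucleotide supply genes rose in 5 of 5 members, with a median log2 difference of 1.35. Rrm2, the small subunit of ribonucleotide reductase, which makes deoxyribonucleotides, had the largest difference of all tested members. It measured 9.56, 7.98 and 8.86 in QSC and 10.98, 11.12 and 11.37 in CSC, a difference of 2.36 ± 0.33 (5.13-fold; adjusted p = 0.00228). Its QSC pools were also the most scattered, with an SD of 0.79 against 0.20 in CSC (n = 3 pools each), yet no pools overlapped. Rrm1, the large subunit, measured 10.39, 10.14 and 9.90 and 11.17, 11.33 and 11.44, a difference of 1.17 ± 0.16 (adjusted p = 0.00175). Tyms, the thymidylate synthase, differed by 1.98 ± 0.20, Tk1, the salvage thymidine kinase, by 1.35 ± 0.16, and Dut, which keeps uracil out of DNA, by 1.25 ± 0.18. The 2 Tk1 probesets gave 1.35 and 1.38.

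Chromatin and DNA methylation genes rose in 5 of 5 members, with a median log2 difference of 1.80. Uhrf1, which brings the maintenance methyltransferase to newly copied DNA, measured 6.91, 6.40 and 6.73 in QSC and 9.01, 8.62 and 8.65 in CSC, a difference of 2.08 ± 0.17 (adjusted p = 0.000233). Dnmt1, that methyltransferase, differed by 1.34 ± 0.23. Hells, a chromatin remodeller also known as Lsh, measured 5.96, 6.11 and 6.14 and 8.01, 8.29 and 8.04, and its difference of 2.04 ± 0.13 had the smallest adjusted p of the members, 0.000105. Hells passed the filter on dim genes only through the WT CSC pools, and without the filter its adjusted p was 0.000231. Chaf1a and Chaf1b, subunits of the assembly factor that places histones on new DNA, differed by 1.20 ± 0.13 and 1.80 ± 0.15. Chaf1a measured 7.10, 6.93 and 7.14 in QSC and 8.40, 8.24 and 8.12 in CSC, the smallest difference in this role, and it passed as well (adjusted p = 0.000687). Slbp, which binds the stem-loop of histone mRNA, measured 8.98, 9.12 and 8.92 in QSC and 9.22, 9.41 and 9.54 in CSC. Its difference of 0.39 ± 0.14 did not pass (adjusted p = 0.0823). The 2 Slbp probesets gave 0.39 and 0.29.

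**Figure D2:**
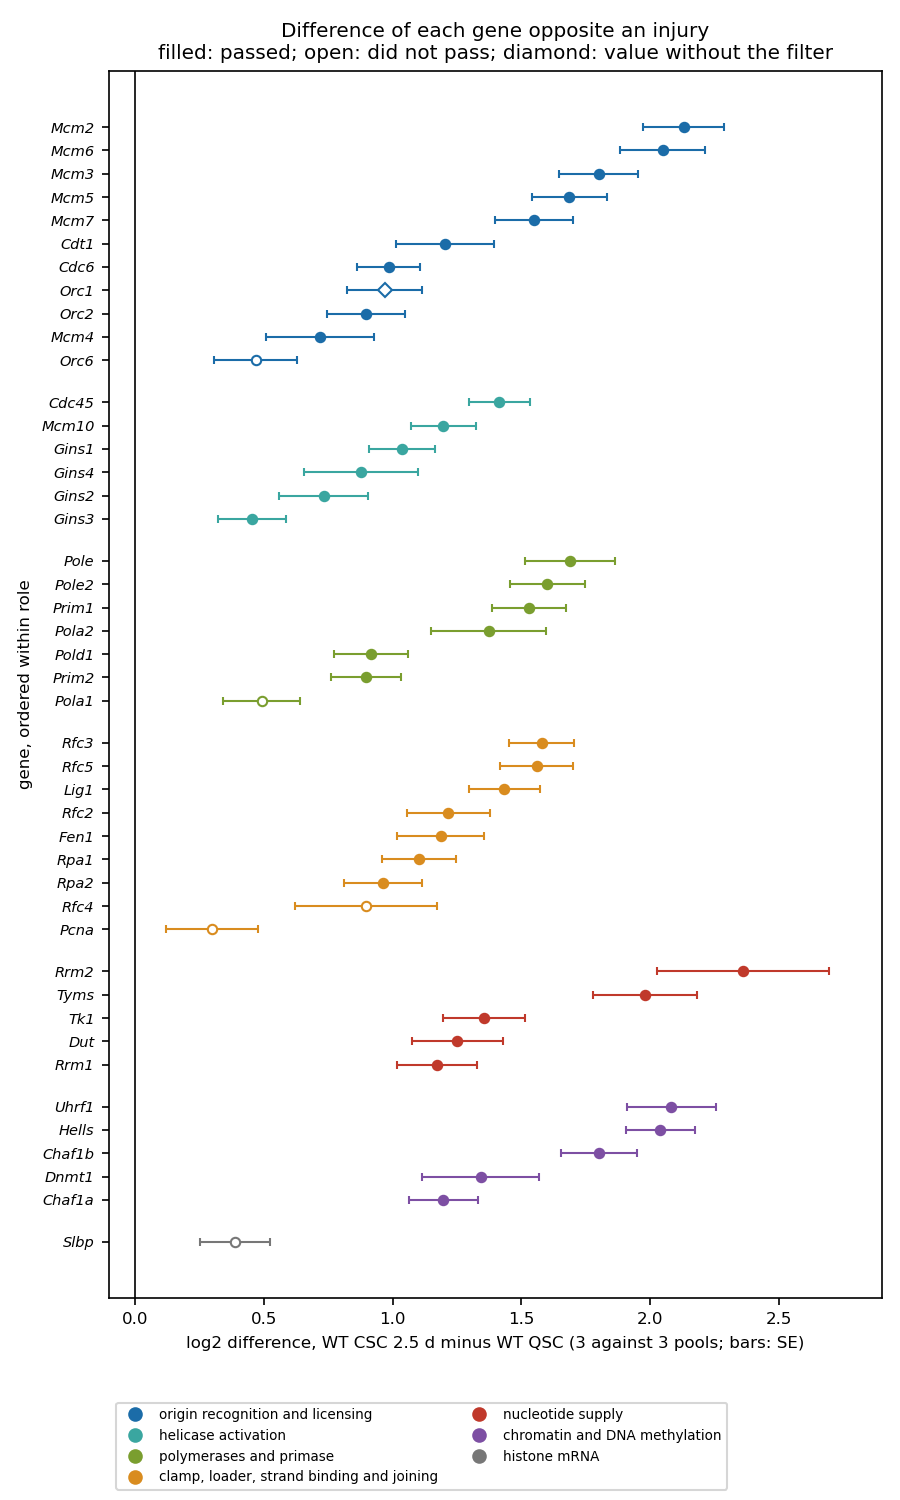
Log2 difference of each gene between the 3 WT CSC pools at 2.5 days and the 3 WT QSC pools (bars: SE), ordered within role and coloured by role. Filled points passed, open circles (Orc6, Pola1, Rfc4, Pcna, Slbp) did not, and the diamond is Orc1 without the filter. All 44 points lie above 0.

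Other genes of the process, which are not among the 44, were read from a wider list. Of 43 further replication genes, 37 were tested and 22 were called higher and 0 lower, with a median log2 difference of 0.69. The 3 with the smallest p were Asf1b, a histone chaperone (2.17 ± 0.13), Wdhd1, which ties polymerase alpha to the helicase (1.61 ± 0.12), and Cdca7, a partner of Hells (1.69 ± 0.15). Of 13 tested further nucleotide supply genes 5 were higher and 0 lower. Among 17 cyclins, E2F factors and related genes of S phase entry 11 were higher and 1 lower, including the S phase cyclins Ccne2 (2.69 ± 0.20) and Ccna2 (2.05 ± 0.13). All 15 tested mitosis genes were higher, with a median of 1.75, among them the mitotic kinase Plk1 (2.99 ± 0.21).

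Markers of other cell types moved in the same comparison. Of 14 tested endothelial markers 10 were lower and 0 higher in WT CSC (median log2 difference -1.16), and the mean level of the list was 8.93 to 9.58 in the WT QSC pools and 7.89 to 8.32 in the WT CSC pools. Of 9 fibro-adipogenic markers 5 were lower and of 9 pericyte and smooth muscle markers 4, with 0 higher. Of 12 tested macrophage and monocyte markers 0 were called (2 at an unadjusted p under 0.05), and their median difference was -0.02. Of 10 satellite cell markers 4 were lower and 0 higher, Pax7 by 1.07 on the log2 scale. Genes of the mature muscle fibre went the other way: 3 of 11 tested were higher and 0 lower (median log2 difference 0.31), namely the muscle enolase Eno3 (3.59 ± 0.17, limma adjusted p = 3.53e-05), the fast-fibre actinin Actn3 (1.38 ± 0.24, limma adjusted p = 0.00551) and the troponin Tnnt3 (0.98 ± 0.24, limma adjusted p = 0.023). The mean level of that list was 8.69, 7.94 and 8.85 in the WT QSC pools and 9.20, 9.04 and 8.90 in the WT CSC pools. Of 4 tested erythroid markers 1, the transferrin receptor gene Tfrc, was higher, and of 2 tested lymphocyte markers 0 were called. The part of these markers in the replication result was not tested.

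By 28 days after the injury the single WT CSC pool was near WT QSC. In limma's test 0 of the 43 tested members were called against WT QSC, as were 0% of all tested genes, and the median log2 difference was -0.01, with a range of -0.48 to 0.52 and a median SE over all genes of 0.22. At an unadjusted p under 0.05, 1 member, Pola1 (0.52 ± 0.21), and 637 of all tested genes differed. Mcm2 measured 8.04 at 28 days, Uhrf1 6.70, Rfc5 8.81 and Rrm2 8.32. The Mcm2, Uhrf1 and Rrm2 values fell inside the range of the 3 WT QSC pools, and the Rfc5 value lay under it. Orc2 at 9.09 and Pola1 at 8.60 lay above all 3 WT QSC pools, and Pola1 lay within the range of the 2.5 day CSC pools. Mcm4, Prim1, Prim2, Fen1 and Hells also lay above all 3 WT QSC pools. Cdc6, Rrm1, Lig1, Pold1, Chaf1a and Chaf1b lay under all 3, as Rfc5 did. How many of all tested genes lay outside the WT QSC range in this pool was not counted. The positions of these members therefore do not set them apart from other genes.

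Set against the 3 WT CSC pools at 2.5 days, the 28 day pool was lower in 32 of 43 tested members and higher in 0, where 6.32% of tested genes were lower and 2.06% higher. The median log2 difference was -1.30. This comparison and the one at 2.5 days share the WT CSC pools. The members with the smallest p were Rfc5 (-1.92 ± 0.20, adjusted p = 0.00143), Mcm2 (-2.13 ± 0.22, adjusted p = 0.00143), Chaf1b (-1.92 ± 0.21), Hells (-1.75 ± 0.19) and Lig1 (-1.73 ± 0.19). By role, 7 of 10 licensing, 3 of 6 helicase activation, 5 of 7 polymerase, 7 of 9 clamp and joining, 5 of 5 nucleotide supply and 5 of 5 chromatin genes were lower. All 15 tested mitosis genes were lower too. Without 1 WT CSC pool at 2.5 days the count was 25 to 28. Calls over all tested genes, 1169 with every pool, were then 453 to 655. Without the filter the member count was 31 of 44, with Hells, which passed the filter only through the 2.5 day WT CSC pools, still lower (adjusted p = 0.00294). Marker lists differed between these pools too. The mature muscle fibre list had a mean level of 7.94 at 28 days against 8.90 to 9.20 at 2.5 days, with 3 of 11 tested markers lower, and the satellite cell list 11.42 against 10.87 to 11.04, with 1 of 10 higher. The endothelial list had 8.22 against 7.89 to 8.32, with 1 of 14 higher. The part of these markers in the result was not tested.

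**Figure D3:**
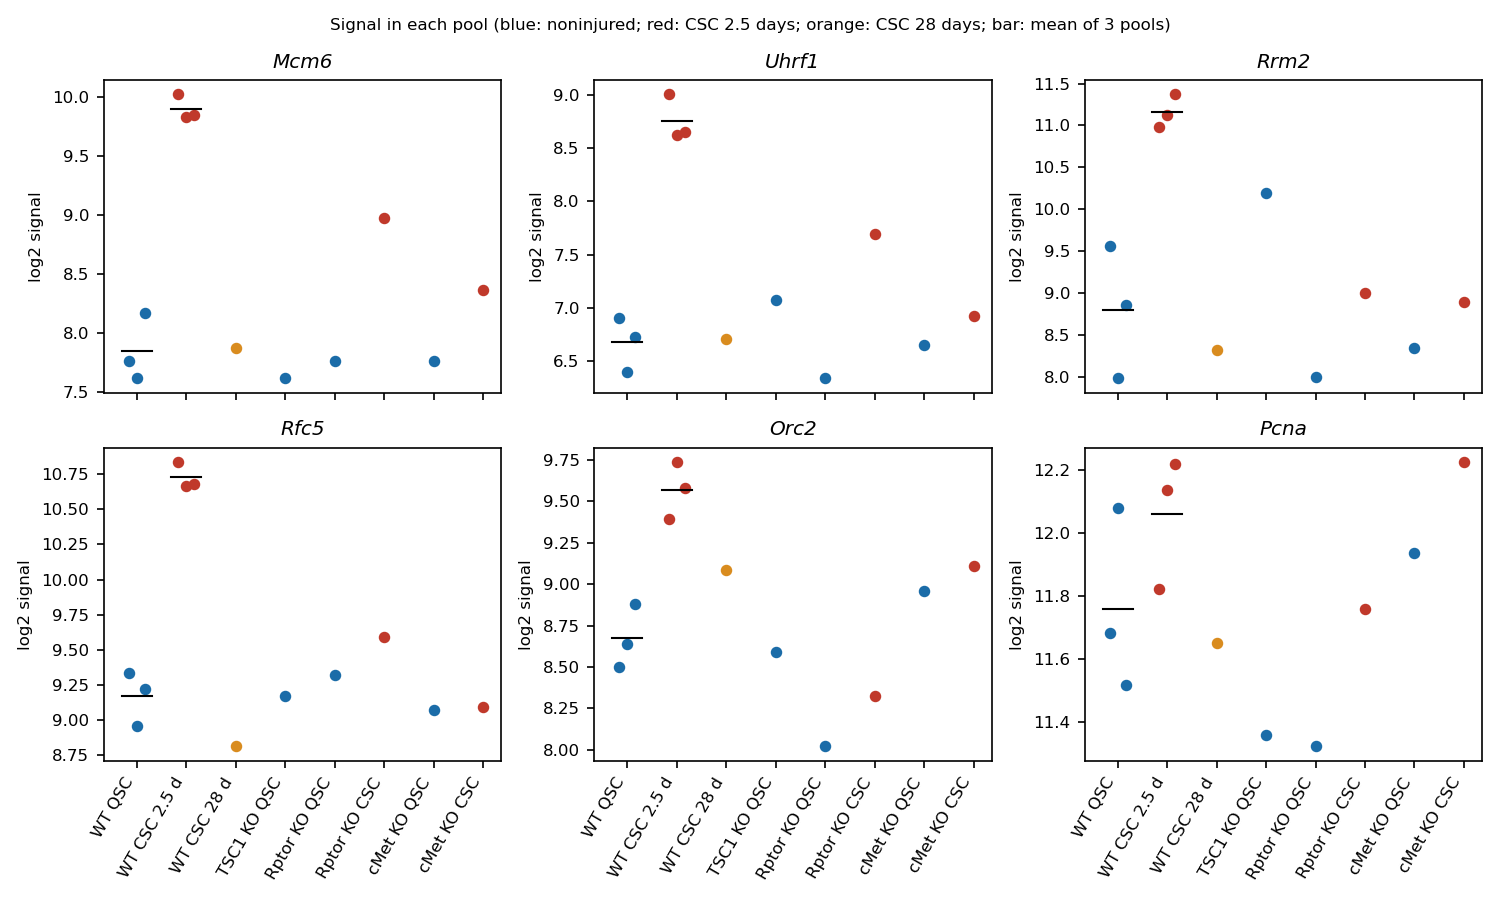
Log2 signal of Mcm6, Uhrf1, Rrm2, Rfc5, Orc2 and Pcna in each pool (points; each panel has its own axis range), with the mean of the 3 pools as a bar for WT QSC and WT CSC at 2.5 days. For Mcm6, Uhrf1, Rrm2, Rfc5 and Orc2 all 3 WT CSC pools at 2.5 days lie above every other pool, and for Pcna they do not.

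In noninjured mice the median of the replication genes stayed close to WT QSC in each knockout, while single members differed more. TSC1 KO QSC gave 0 calls among the 43 tested members in limma's test, where 0.0143% of tested genes were called higher and 0% lower. The median log2 difference was 0.11, with 31 members above 0, and all tested genes had a median of 0.04. An unadjusted p under 0.05 was found for 2 members, as for 8.82% of all tested genes. Rrm2 measured 10.19, above the 3 WT QSC pools (9.56, 7.98 and 8.86) and below the 3 WT CSC pools, a difference of 1.39 ± 0.47 (adjusted p = 0.471). Without WT QSC pool 1, the highest of the 3, that Rrm2 difference was 1.77 ± 0.34 and passed (adjusted p = 0.048). Leaving out that pool raised the calls over all 13956 tested genes from 2 to 231. Rpa1 measured 8.82 against 8.34, 7.92 and 8.24, a difference of 0.66 ± 0.20 (adjusted p = 0.444). The 15 tested mitosis genes had a median of 0.39, with 0 called.

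Rptor KO QSC also gave 0 member calls in limma's test, where 0.0358% of tested genes were higher and 0.086% lower, and the median was 0.03 with a range of -0.80 to 0.61. An unadjusted p under 0.05 was found for 11.3% of all tested genes and for 3 members: Chaf1b (-0.69 ± 0.21, adjusted p = 0.261), Orc2 (-0.65 ± 0.21, adjusted p = 0.288) and Cdt1 (0.61 ± 0.27, adjusted p = 0.443). Chaf1b at 6.49 and Orc2 at 8.02 were each the lowest of the 12 pools, and so were other members, such as Hells, Pole2 and Rpa1. How many of all tested genes had their lowest value in this pool was not counted, so this does not set the members apart. Role medians from the WT QSC mean were -0.34 for chromatin, -0.24 for nucleotide supply and -0.22 for helicase activation genes. They were 0.04 for licensing, 0.04 for polymerase and 0.14 for clamp and joining genes. Of the 15 tested mitosis genes 4 were lower in this pool, with a median of -0.85. cMet KO QSC gave 0 calls, as for 0% of tested genes, with 0 members and 1.33% of all tested genes at an unadjusted p under 0.05, a median of 0.03 and a range of -0.45 to 0.29.

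In the Rptor knockout the replication genes of the CSC pool lay between WT QSC and WT CSC for most members. The pool was above all 6 QSC pools of any genotype for 29 of the 44 members (13.7% of tested genes), and for 28 of these it was also below all 3 WT CSC pools (3.58% of tested genes). Mcm2 measured 8.08 in Rptor KO QSC and 9.28 in Rptor KO CSC, Mcm6 7.76 and 8.97, and Uhrf1 6.34 and 7.69. The WT CSC pools of these genes all measured more, from 10.06 to 10.30 for Mcm2, 9.83 to 10.02 for Mcm6 and 8.62 to 9.01 for Uhrf1. Other members showed little of this. Rrm1 measured 9.90 and 9.97, Rfc5 9.32 and 9.59, Gins1 5.94 and 6.09, and Orc2 8.02 and 8.33.

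Between the Rptor KO CSC and QSC pools limma called 0 of 43 members, where 0.258% of tested genes were called higher and 0% lower. The differences of 40 members were above 0, as for 43.5% of all tested genes, with a median of 0.42, and 16 members and 5.06% of all tested genes had an unadjusted p under 0.05. The largest were 1.54 ± 0.26 for Chaf1b (adjusted p = 0.0612), 1.36 ± 0.30 for Uhrf1 (adjusted p = 0.203), 1.21 ± 0.28 for Mcm6, 1.20 ± 0.27 for Mcm2 and 1.16 ± 0.25 for Pole2. Chromatin genes had the largest role median, 1.02, followed by licensing at 0.62 and nucleotide supply at 0.42. Clamp and joining had 0.38, polymerases 0.32 and helicase activation 0.24. Taken from the WT QSC mean instead, the Rptor KO CSC medians were 0.83 for licensing, 0.74 for chromatin and 0.57 for polymerases. They were 0.40 for clamp and joining, 0.40 for helicase activation and 0.20 for nucleotide supply. The order of the roles therefore depended on the QSC values subtracted. Between the Rptor KO pools, the 3 members at or below 0 were Mcm4 (-0.20), Rfc4 (-0.04) and Gins4 (-0.01). Of the 15 tested mitosis genes 7 were called higher, with a median of 1.43 from the low QSC pool.

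Against the 3 WT CSC pools, Rptor KO CSC was lower in 14 of 43 tested members and higher in 0, with a median log2 difference of -0.80, where 2.97% of tested genes were lower and 0.924% higher. The 5 with the smallest p were Hells (-1.37 ± 0.19, adjusted p = 0.0106), Gins1 (-1.23 ± 0.18, 0.013), Rfc3 (-1.13 ± 0.18, 0.0154), Rrm1 (-1.34 ± 0.22, 0.0179) and Orc2 (-1.24 ± 0.21, 0.0199). Nucleotide supply had 4 of 5 members lower (Rrm1, Rrm2, Tk1 and Dut, not Tyms), and chromatin 3 of 5 (Hells, Chaf1b and Uhrf1). Of Mcm2 to Mcm7, 0 of 6 were called, with differences of -0.93 to -0.44, smallest adjusted p = 0.0608, and 5 at an unadjusted p under 0.05, as 19.8% of all tested genes were. The member count changed when 1 pool was left out. It was 0 without WT CSC pool 2 or pool 3, 5 without WT CSC pool 1, and 23 without WT QSC pool 2. Calls over all tested genes, 544 with every pool, were 68, 25, 233 and 994 in that order. The member count was 9 with a filter at the 50th percentile and 10 of 44 without a filter, where Rrm2, Dut, Uhrf1 and Chaf1b were not called. Hells and Gins1 passed the filter only through the WT CSC pools, where they were high, and without it they were still lower (adjusted p = 0.0158 and 0.0171).

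The Rptor KO CSC pool also stood apart in macrophage and monocyte markers. The mean level of that list was 9.18 there and 7.09 to 8.16 in the 11 other pools, 12 of 12 tested markers were above Rptor KO QSC, with 1 called, and 9 of 12 were called higher than in WT CSC. Lyz2, the lysozyme of these cells, measured 12.60 against 7.52 to 10.64 in the other pools, and Csf1r, their growth factor receptor, 8.61 against 6.43 to 7.41. Adgre1, a macrophage surface receptor gene, measured 8.18 against 5.70 to 6.71. The part of this signal in the replication genes of that pool was not tested. The mature muscle fibre list had a mean level of 7.81 in it against 8.90 to 9.20 in WT CSC, with 2 of 11 tested markers lower, and its part was not tested either. Its Pax7 signal was 11.08, within the range of the WT pools.

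**Figure D4:**
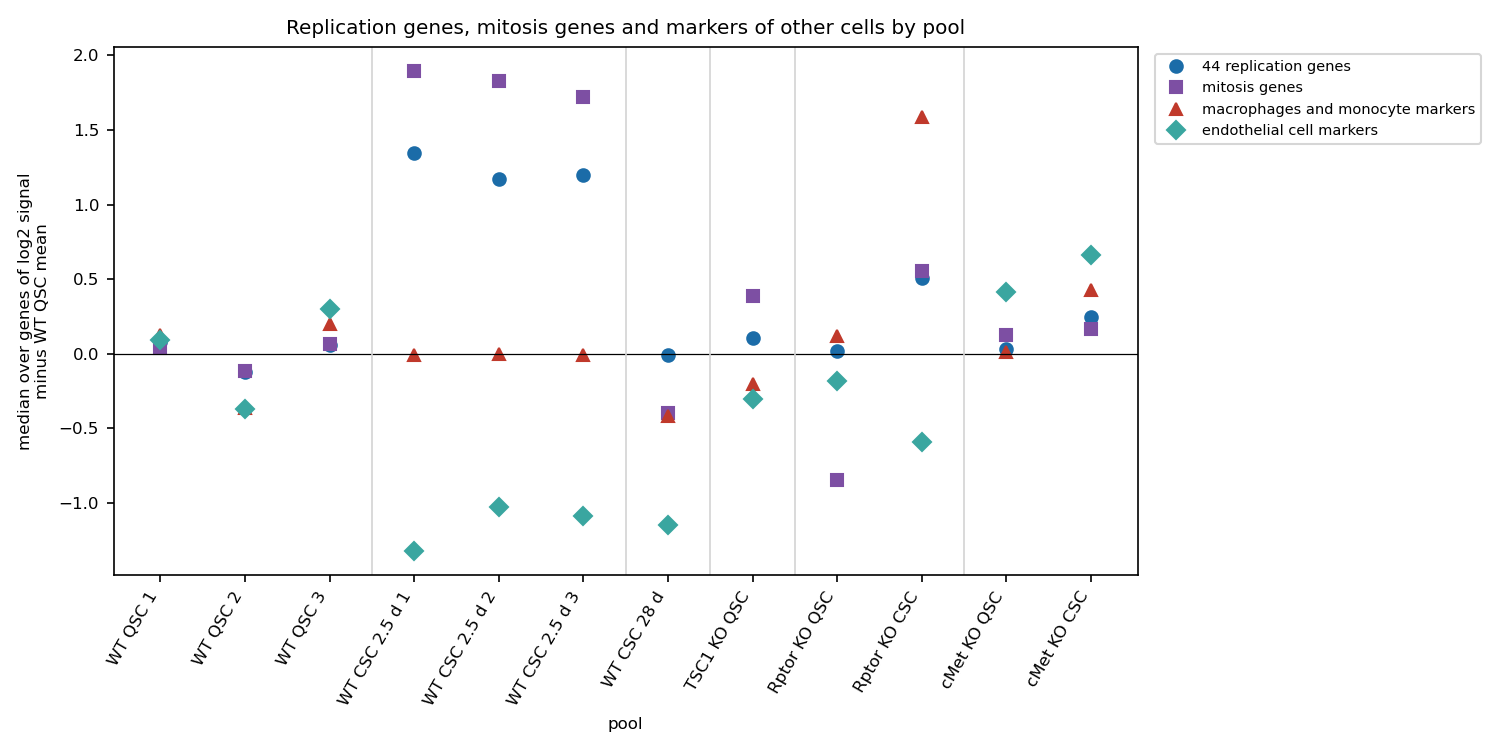
Median over genes of log2 signal minus the WT QSC mean, in each of the 12 pools, for the 44 replication genes, mitosis genes, macrophage and monocyte markers and endothelial markers. The replication genes reach 1.17 to 1.35 in WT CSC at 2.5 days, 0.51 in Rptor KO CSC and 0.25 in cMet KO CSC, while the macrophage markers reach 1.59 in Rptor KO CSC.

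In the cMet knockout the CSC pool stayed nearer the QSC pools than WT CSC did, with small differences above 0 for most members. For Mcm2 the QSC pool measured 7.98 and the CSC pool 8.35, and in the same order Uhrf1 measured 6.65 and 6.92, Rfc3 7.02 and 6.91, and Hells 6.05 and 6.57. Of these, Hells in CSC was above all 6 QSC pools, as were 20 of the 44 members (13.1% of tested genes), while Mcm2, Uhrf1 and Rfc3 were not. Between the pools limma called 0 of 43 members and 0% of tested genes, with 0 members and 75 of all tested genes at an unadjusted p under 0.05. The differences of 38 members were above 0, as for 40.8% of all tested genes, with a median of 0.23 and a range of -0.11 to 0.60. The largest were 0.60 ± 0.28 for Mcm6, 0.54 ± 0.58 for Rrm2 and 0.52 ± 0.23 for Hells. Mitosis genes had a median of 0.03.

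Against the 3 WT CSC pools, cMet KO CSC was lower in 26 of 43 tested members and higher in 0, with a median log2 difference of -1.10, where 3.35% of tested genes were lower and 3.40% higher. The smallest p belonged to Rfc3 (-1.56 ± 0.18, adjusted p = 0.00278), followed by Rfc5 (-1.63 ± 0.20), Mcm2 (-1.82 ± 0.22), Hells (-1.54 ± 0.19) and Uhrf1 (-1.84 ± 0.24). Lower members made up 7 of 10 licensing, 2 of 6 helicase activation, 4 of 7 polymerase, 5 of 9 clamp and joining, 4 of 5 nucleotide supply and 4 of 5 chromatin genes. Mcm4 was the MCM subunit not called (-0.26 ± 0.30). Without WT CSC pool 3 the count was 17, and it was 18 without pool 1 or pool 2. Calls over all tested genes, 941 with every pool, were 314 without pool 3, 423 without pool 1 and 374 without pool 2. Without the filter the member count was 23 of 44, Hells among them (adjusted p = 0.00509). The same pool was higher than WT CSC in 11 of 14 endothelial markers, whose list mean was 9.96 against 7.89 to 8.32, in 5 of 9 fibro-adipogenic markers and in 2 of 9 pericyte and smooth muscle markers. It had the highest lymphocyte list mean of the 12 pools, 7.86 against 6.93 to 7.05 in WT CSC, with 1 of 2 tested markers called higher. Its macrophage and monocyte list mean was the second highest, 8.16 against 7.51 to 7.56, with 3 of 12 markers higher. The mature muscle fibre list was 8.01 against 8.90 to 9.20, with 1 of 11 markers lower. The part of these markers in the result was not tested.

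The difference between the responses, each CSC minus QSC of its own genotype, was tested directly. For Rptor KO minus WT limma called 0 of 43 members, and 0% of tested genes, but 42 members were below 0, as were 53.0% of all tested genes, with a median of -0.79. An unadjusted p under 0.05 was found for 23 members and for 4.44% of all tested genes. The smallest adjusted p was 0.353, for Rfc3 (-1.20 ± 0.25). Pcna was the member above 0, at 0.14. For cMet KO minus WT limma also called 0 of 43 members, where 0.122% of tested genes were lower and 0.0358% higher. All 43 members were below 0, as were 50.7% of all tested genes, with a median of -1.14. An unadjusted p under 0.05 was found for 31 members and for 9.52% of all tested genes. The smallest adjusted p were 0.0569 for Rfc3 (-1.69 ± 0.25), 0.0743 for Hells (-1.52 ± 0.27) and 0.0758 for Mcm2 (-1.76 ± 0.32). Hells passed the filter on dim genes only through the WT CSC pools, which enter this test. Without the filter the adjusted p was 0.1 for Hells, 0.0727 for Rfc3 and 0.112 for Mcm2. Of the 15 tested mitosis genes 5 were called lower in this comparison. The median SE of a difference of responses was 0.31 over all tested genes and that of the WT response 0.15. Both comparisons use the same WT pools, and no test set the knockouts against each other.

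Across the 43 tested members, the Rptor KO response had a Pearson correlation of 0.77 with the WT response (Spearman 0.77), and 0.62 across all tested genes. The cMet KO response had 0.38 (Spearman 0.35), and 0.19 across all tested genes. The responses compared share no pools, but genes are not independent replicates, and each knockout response rests on 1 pool on each side. Mcm2, Mcm6, Uhrf1, Hells and Chaf1b, with large WT differences, were also among the larger ones in the Rptor knockout, while Rfc5 differed by 1.56 in WT and 0.27 in the Rptor knockout.

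**Figure D5:**
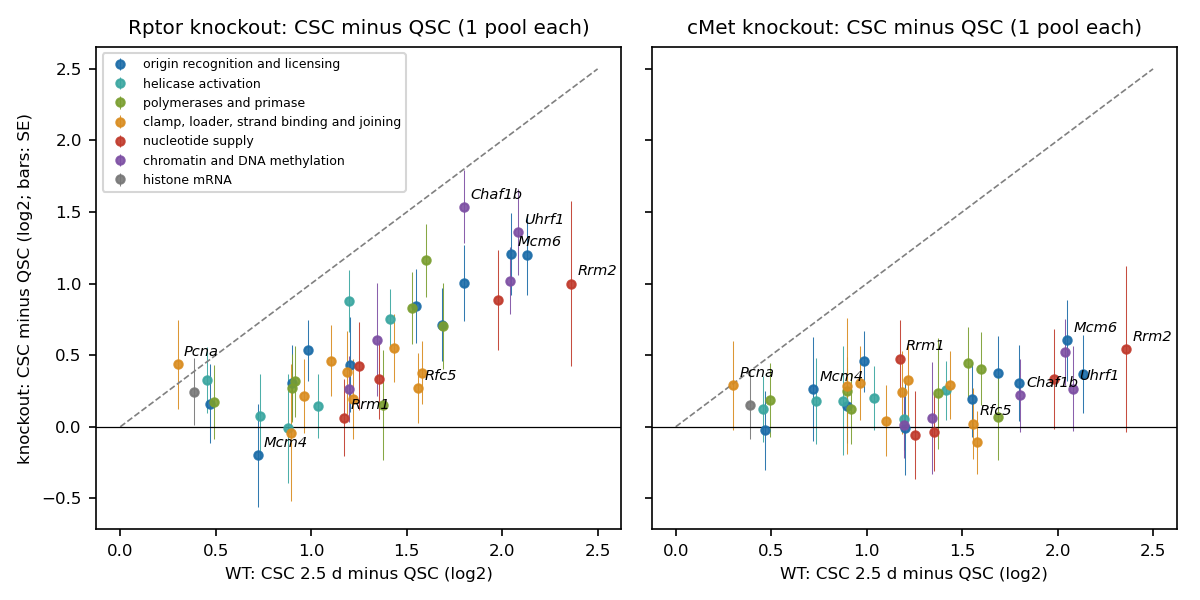
CSC minus QSC (log2) in the Rptor knockout (left) and the cMet knockout (right) against the same difference in WT for the 43 tested members, coloured by role, with the SE as bars and equality as a dashed line. In the left panel 42 points and in the right panel all 43 lie below the line.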

How the data were processed

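Gene expression was measured in 12 pools of sorted mouse muscle stem cells on 21 arrays, with 100 ng of RNA per array, per the labels. Per the submitters' processing notes, the deposited log2 probeset signals came from RMA as run in Affymetrix Expression Console, and the sources used here name neither its version nor a build. RMA compresses low signals and so understates the differences of dim genes.

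The platform table pairs 21789 of 35556 probesets with 1 symbol and 1621 with several, and does not list 12146. Genes with a mean signal under the 30th percentile (log2 6.45) were dropped. limma 3.58.1 (lmFit, eBayes; R 4.3.3) fitted 8 group means and 12 contrasts, with Benjamini-Hochberg adjustment across the 13956 tested genes and a threshold of 0.05. Both replicated WT groups supply the 4 residual degrees of freedom (moderated 9.01). The fit was tested on simulated data. Arrays of the same pool (9 pools had 2, 3 had 1) correlated at 0.973 to 0.998, and their number limits the precision.

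The 44 members, the wider lists and the tests were chosen with earlier results of these data known. Named members are the largest and smallest WT difference in each role, those that did not pass, and up to 5 by smallest p in single-pool comparisons. Further members were named after their values were seen. Context genes are up to 3 per list by smallest p. The marker Csf1r, Lyz2, Adgre1, Myf5 and Pax7 values were also chosen after they were seen. Promoter windows are RefSeq's (GRCm38.p6), searched on both strands. Alternatives were another normalization or centring, other filters, the mean of all probesets, trend and robust options, a random block for the pool over all arrays, first arrays only, each WT pool left out, the 6 WT pools alone and the replicate number as a block. No label says that replicate numbers pair the pools. Same-numbered WT QSC and CSC pools had correlations of deviations of 0.32, -0.03 and -0.03, which are too few to decide it. Figures were drawn with matplotlib 3.10.9.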

Additional observations from a re-analysis of the deposited data

How the results depend on the processing

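Of the 38 members called between WT CSC at 2.5 days and WT QSC, 34 were called under each of the 16 alternatives that tested them, and the exceptions were Mcm4, Gins2, Gins3 and Gins4. The member count ran from 29 (filter at the 50th percentile, with 33 members tested) to 41, and from 34 to 38 with 1 pool left out. No named member changed sign. With the replicate block, 41 members were called against 38 without it, and 2796 of all tested genes against 2510. No label says that same-numbered pools are paired. The count over all genes was 1194 to 1296 without 1 WT CSC pool and 3606 with the pool as a random block. Between Rptor KO CSC and QSC, 1 member was called after quantile normalization again and 1 with trend and robust options (Chaf1b each time), 3 with the pool as a random block (Mcm2, Mcm3 and Mcm6) and 3 with the first array of each pool (Uhrf1, Hells and Chaf1b), against 0. Between Rptor KO CSC and WT CSC the 14 became 9 with the 50th percentile filter, 25 with the random block and 0 to 23 with 1 WT pool left out, and for cMet KO CSC against WT CSC the 26 became 17 to 31 with 1 left out. For the test of the cMet KO against the WT response, 0 became 2 with trend and robust options (Rfc3 and Hells), 15 with the random block, 2 with the first array (Uhrf1 and Hells) and 0 to 1 with 1 pool left out. Hells passed the main filter only through the WT CSC pools, as given above. Over all tested genes the 22 calls of that test became 52 with trend and robust options, 357 with the random block and 31 with the first array. The 36 calls over all tested genes between Rptor KO CSC and QSC became 47 after quantile normalization again, 50 with trend and robust options, 112 with the random block and 62 with the first array. The 544 between Rptor KO CSC and WT CSC became 423 with the 50th percentile filter, 1378 with the random block and 25 to 994 with 1 WT pool left out. The 941 between cMet KO CSC and WT CSC became 314 to 1578 with 1 WT pool left out. Members called in TSC1 KO QSC, relative to WT QSC, numbered 0 to 1. The count of that comparison over all tested genes was less stable and rose when WT QSC pool 1 was left out, as given above. The random block counts technical arrays beside 6 groups of 1 pool, and the 50th percentile filter tests fewer members. Otherwise the cause was not tested. With 4 residual degrees of freedom and 1 pool in 6 groups, single-pool values carry no check of their own, and a dim gene such as Orc1 has a signal close to background.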

Other observations

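Beside the replication genes, 2 proliferation genes chosen after their values were seen were low in Rptor KO QSC. Ccna2, the cyclin of S phase and G2, measured 6.45 in that pool against 9.19, 8.91 and 9.05 in WT QSC, and 9.47 in Rptor KO CSC. Its log2 difference from WT QSC was -2.59 ± 0.19 (limma adjusted p = 0.00293), and of the 17 tested genes of S phase entry it was the 1 called lower, with 0 higher. Mki67, the gene of the proliferation marker Ki-67, measured 6.95 against 9.18, 8.96 and 9.19 in WT QSC, a difference of -2.16 ± 0.19 (limma adjusted p = 0.00776). The 11 other pools ranged from 8.29 to 10.58 for Mki67. The replication genes were mixed in the same pool. Mcm2 measured 8.08 and Mcm5 8.30, both within the range of the 3 WT QSC pools. Other members, among them Chaf1b, Orc2, Hells, Pole2 and Rpa1, were lower there than in any other pool, as given above. The share of all tested genes that were lowest there was not counted. These differences rest on 1 pool.

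Ccne2, a cyclin that starts S phase, measured 6.24, 6.31 and 6.49 in WT QSC and 8.59, 9.16 and 9.37 in WT CSC at 2.5 days. It measured 7.14 in Rptor KO CSC and 7.04 in cMet KO CSC, both above the 6 QSC pools and below the 3 WT CSC pools. At 28 days it was 6.24.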
